A study of Mus musculus with 12 samples.

Results

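The 7 linker histone H1 genes of this mouse data set that somatic cells are known to use, Hist1h1a, Hist1h1b, Hist1h1c, Hist1h1d, Hist1h1e, H1f0 and H1fx, were followed in basal cells of the hard palate epithelium. They were taken by name from a count table of 23420 genes, and all 7 were present and passed the filter on low counts. The members were selected on the family name with their log2 differences between GFP-HI and GFP-LO already seen in these libraries, so the GFP-HI against GFP-LO values of the members are a description, and no test of that contrast is used to support them. GFP-HI and GFP-LO cells came from the same 6 FVB mice, all of genotype K5-tTA (+/-) and tetO-H2B-GFP (+/-), after a doxycycline chase of 14 days. A keratin 5 promoter drives the transactivator, doxycycline silences the reporter, and the histone H2B-GFP already made is diluted when cells divide. The submitters label GFP-HI cells as infrequently and GFP-LO cells as frequently dividing, and anti-CD49f staining was used in the sort to isolate basal cells of both fractions. Mouse B7F was 71 days old and the other 5 mice, B1M, B3M, B4M, B5M and B7M, were 49 days old. Each library came from 1 small pool of sorted cells (200 to 1000), and how often those cells had divided was not measured by the libraries.

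Linker histones bind the nucleosome where DNA enters and leaves it, and they help nucleosome arrays to fold. The Hist1h1 genes are replication-dependent: like the core histone genes around them they are expressed mainly in S phase, and their mRNAs usually end in a stem-loop in place of a poly(A) tail. H1f0 and H1fx are replication-independent genes with polyadenylated mRNAs, and H1f0 in particular is known to accumulate in cells that have left the cycle or differentiated.

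The 5 Hist1h1 genes lie on chromosome 13 (mm10), each as 1 annotated exon. Hist1h1b, which encodes H1.5, stands apart at 21779883 to 21780554. Hist1h1d (H1.3, 23555032 to 23558008), Hist1h1e (H1.4, 23620628 to 23622558), Hist1h1c (H1.2, 23738807 to 23740367) and Hist1h1a (H1.1, 23763668 to 23764414) lie closer together. H1f0 (H1.0) is on chromosome 15 at 79028212 to 79030500, and H1fx (H1.10) on chromosome 6 at 87980421 to 87981482, also with 1 exon each.

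The promoter sequences are shown because the 5 Hist1h1 genes varied together across the libraries and H1f0 did not. All 7 genes had an entry among the RefSeq promoters (GRCm38.p6). The stretches below are the 130 bases before the start site, read 5′ to 3′ on the strand of the gene. Capitals mark the H1 box AAACACA, the CCAAT box CCAAT and the TATA box TATAAA, on either strand. No match overlapped another.
Hist1h1a, chr13:23763538-23763667, plus strand: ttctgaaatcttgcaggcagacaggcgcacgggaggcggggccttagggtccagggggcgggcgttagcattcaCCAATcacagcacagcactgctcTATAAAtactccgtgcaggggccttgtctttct
Hist1h1b, chr13:21780626-21780755, minus strand: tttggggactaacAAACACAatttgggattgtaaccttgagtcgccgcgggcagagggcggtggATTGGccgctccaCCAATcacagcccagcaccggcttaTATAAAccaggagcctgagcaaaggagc
Hist1h1c, chr13:23738677-23738806, plus strand: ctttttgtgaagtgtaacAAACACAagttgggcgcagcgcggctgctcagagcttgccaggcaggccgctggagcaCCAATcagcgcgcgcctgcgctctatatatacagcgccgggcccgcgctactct
Hist1h1d, chr13:23554902-23555031, plus strand: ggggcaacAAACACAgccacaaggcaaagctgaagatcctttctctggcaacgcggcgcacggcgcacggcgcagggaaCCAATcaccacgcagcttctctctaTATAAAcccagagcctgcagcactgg
Hist1h1e, chr13:23622559-23622688, minus strand: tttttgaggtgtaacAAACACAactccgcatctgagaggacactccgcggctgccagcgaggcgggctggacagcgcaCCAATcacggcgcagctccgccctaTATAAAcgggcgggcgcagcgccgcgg
H1f0, chr15:79028082-79028211, plus strand: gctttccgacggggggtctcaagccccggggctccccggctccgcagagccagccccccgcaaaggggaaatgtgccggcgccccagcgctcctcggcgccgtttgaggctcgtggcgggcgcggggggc

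The H1 box stood 5′ of a CCAAT box in Hist1h1b, Hist1h1c, Hist1h1d and Hist1h1e, with 64, 58, 71 and 63 bases between the first letters of the pair. Hist1h1a had the CCAAT box and the TATA box but no H1 box in its 300 bases (250 before and 50 after the start site). Hist1h1c had no TATAAA. Neither H1f0 nor H1fx had any of the 3 motifs in its window. Searched on both strands in all 32851 windows, the H1 box was in 7.18%, the CCAAT box in 37.4% and the TATA box in 13.6%. The pair on 1 strand, with the H1 box 50 to 75 bases before CCAAT, was in 33 windows (0.1%) of 32 genes, and these 4 Hist1h1 genes were among them. That spacing was set after the members had been read, and a match in letters is not evidence of binding.

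**Figure D1:**
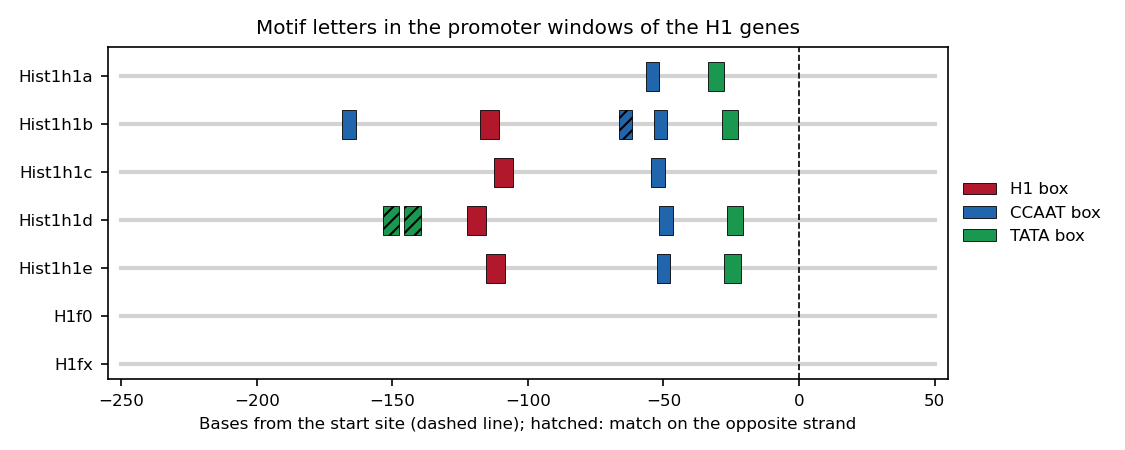
Motif matches in the promoter window of each H1 gene, in bases from the start site (dashed line), with hatching for a match on the opposite strand. Hist1h1b to Hist1h1e share an H1 box upstream of a CCAAT box, Hist1h1a has the CCAAT and TATA boxes alone, and the rows of H1f0 and H1fx are empty.

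The 3′ stem-loop of replication-dependent histone mRNAs was searched for in the GENCODE M21 transcripts on their own strand, by the letters in capitals below with any base accepted at 3 positions. It followed the stop codon by 24 bases in Hist1h1c, 31 in Hist1h1d and 40 in Hist1h1e. The annotated Hist1h1a transcript ends within the motif, after 15 of its letters, 33 bases past the stop codon. The sequences are shown because they set the replication-dependent members apart from H1f0 and H1fx, with the stem-loop in capitals and the GRCm38 coordinates of the capitals.
Hist1h1a, chr13:23764392-23764406, plus strand: ccaacGGCTCTTTTCAGAGC
Hist1h1c, chr13:23739512-23739527, plus strand: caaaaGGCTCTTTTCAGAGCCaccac
Hist1h1d, chr13:23555787-23555802, plus strand: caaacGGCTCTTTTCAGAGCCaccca
Hist1h1e, chr13:23621782-23621797, minus strand: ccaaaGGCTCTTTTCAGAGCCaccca

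The Hist1h1b transcript ends at its stop codon, so the motif could not be looked for there, and no match was found in H1f0 or H1fx. Both of these end with an AATAAA polyadenylation signal, 22 and 21 bases before the annotated end. The Hist1h1c transcript carries both, the stem-loop and an AATAAA 26 bases before a later end. Of 141767 GENCODE transcripts, 49 (0.0346%) from 47 genes held the stem-loop letters, and 42 of those genes bear histone cluster names. In the count table the exon runs 840 bases past the stem-loop in Hist1h1c, 1154 in Hist1h1e and 2206 in Hist1h1d, which matters for levels per length.

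The libraries held 6678444 to 10547665 counts, of which 31.5% to 59.8% were from the pre-ribosomal RNA gene Rn45s. Basal keratinocyte markers were high in both fractions, with a summed level of 15334 to 24047 CPM in GFP-HI cells, against 18234 to 25032 CPM in GFP-LO. Of the 8 basal markers, none was called between the fractions. Fibroblast markers summed to 377 to 616 CPM in GFP-HI cells, against 450 to 702 CPM in GFP-LO, with 5 of the 8 genes tested. Most of it was Dcn, which was lower in GFP-HI (log2 fold change -0.49, edgeR adjusted p = 0.0031), and Postn was higher (0.67, adjusted p = 0.011). Of the 5 tested genes, 4 had a positive log2 fold change. Thy1 had a mean of 37.3 CPM in GFP-HI cells against 33.3 in GFP-LO. Col1a1 and Col1a2 had 2.88 and 2.60 CPM in GFP-HI cells against 0.875 and 0.850 in GFP-LO. Col3a1, Lum and Pdgfra had 0.463, 0.193 and 0.153 CPM in GFP-HI cells against 0.268, 0 and 0.0876 in GFP-LO. The part of the fibroblast markers in the H1 values was not tested. In GFP-HI cells endothelial markers summed to at most 6.57, immune markers to 28.1, melanocyte markers to 8.17 and Merkel cell markers to 15.8 CPM, and in GFP-LO cells to 3.04, 38.0, 8.12 and 22.6 CPM. Markers of differentiated palate summed to 1548 to 4223 CPM in GFP-HI cells, against 1628 to 3001 CPM in GFP-LO, with 0 of 8 tested genes called. No marker was at 0 in all 12 libraries.

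CPM are counts relative to the library total after TMM scaling, and differences are log2 ratios of GFP-HI over GFP-LO within a mouse, as mean ± SD over 6 mice. The 5 Hist1h1 genes were on average higher in GFP-HI and H1f0 was slightly lower, each in nearly all mice, while H1fx had no common direction. Summed over the 5 Hist1h1 genes, transcripts were at 696, 919 and 1896 CPM in GFP-HI (lowest, median and highest library) and at 519, 705 and 1184 CPM in GFP-LO. The ranges overlapped, but within each of the 6 mice the GFP-HI sum was the higher one, by log2 0.44 ± 0.17 or 1.36-fold. In such pools a smaller share of cells with a transcript and less of it per cell cannot be told apart. In the fit over all 11719 tested genes, edgeR called 2 of the 7 members higher (Hist1h1a and Hist1h1d), against 0.469% of all genes, and 0 lower, against 0.0597%; in either direction the share was 0.529%. These calls come from the contrast known when the members were proposed, so they are given beside the background alone and nothing is read from them. The number called higher was 5 with DESeq2, 4 without B1M and 0 without the mouse block, where 109, 81 and 0 genes of the whole table were called higher. Without B3M, B4M, B7F or B7M, Hist1h1a was the only member called. Without B5M, Hist1h1a and Hist1h1e were called. Of the fits without 1 mouse, Hist1h1d was thus called only in the one without B1M.

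**Figure D2:**
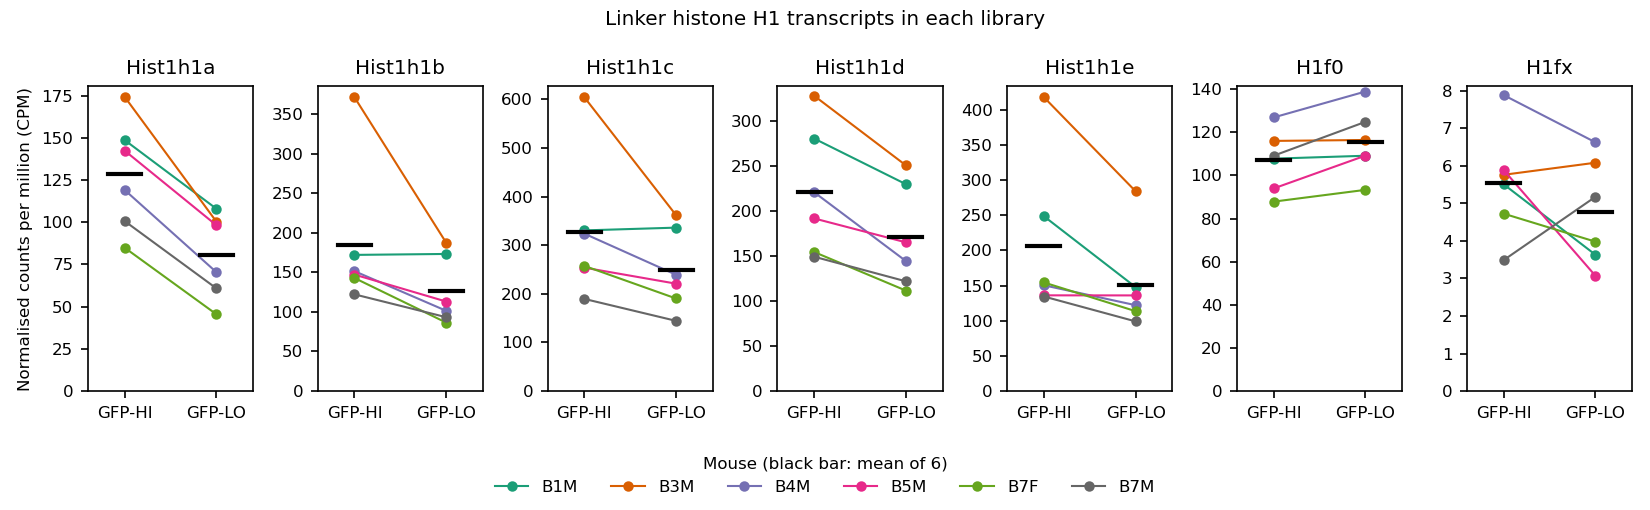
Normalised CPM of the 7 H1 genes in each library, GFP-HI on the left and GFP-LO on the right of each panel, with a line for each mouse and a black bar for the mean of 6. Hist1h1a falls along every line towards GFP-LO, the GFP-HI library of B3M (orange) is far above the others in Hist1h1b, Hist1h1c and Hist1h1e, and H1f0 climbs slightly.

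Hist1h1a, a variant known to be restricted to fewer tissues than the other replication-dependent ones, had the largest mean difference of the 7. It was at 84.9, 131 and 174 CPM in GFP-HI cells, against 45.4, 84.3 and 108 CPM in GFP-LO (lowest, median and highest of 6). Every mouse had more in GFP-HI, by log2 0.46 in B1M to 0.90 in B7F, with a mean of 0.70 ± 0.17. It was also the 1 gene of the 5 whose share of Hist1h1 counts was larger in GFP-HI in 6 of 6 mice, 12.6% ± 2.56 in GFP-HI cells against 10.5% ± 1.94 in GFP-LO cells (SD, n = 6).

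Hist1h1d was at 149, 206 and 328 CPM in GFP-HI cells, against 112, 155 and 251 CPM in GFP-LO. Its differences had the narrowest spread among the 5 Hist1h1 genes, from 0.22 in B5M to 0.61 in B4M with a mean of 0.38 ± 0.15. GFP-HI was thus higher in all 6 mice although the ranges of the fractions overlapped.

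Hist1h1c and Hist1h1e encode H1.2 and H1.4, widely expressed variants. Hist1h1c was at 190, 291 and 605 CPM in GFP-HI cells, against 144, 230 and 362 CPM in GFP-LO, a difference of log2 0.36 ± 0.26. Hist1h1e was at 134, 152 and 418 CPM in GFP-HI cells, against 99.0, 129 and 284 CPM in GFP-LO, a difference of log2 0.42 ± 0.25. The mice did not share a pattern between these genes. In B1M, Hist1h1c was level between the fractions (331 CPM in GFP-HI cells, against 336 CPM in GFP-LO, log2 -0.02) while Hist1h1e differed by log2 0.75, with 249 CPM in GFP-HI cells against 148 CPM in GFP-LO. In B5M it was Hist1h1e that was level, with 136 CPM in each fraction.

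Hist1h1b was at 122, 149 and 371 CPM in GFP-HI cells, against 86.4, 107 and 187 CPM in GFP-LO. Its mean difference of log2 0.51 came with the widest spread of the 5, an SD of 0.34, and it ran from -0.01 in B1M to 0.99 in B3M. Without B3M the mean was 0.42.

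H1f0 was at 87.9, 108 and 127 CPM in GFP-HI cells, against 93.3, 113 and 139 CPM in GFP-LO. It was lower in GFP-HI in 6 of 6 mice, but by log2 -0.01 and -0.02 in B3M and B1M and by at most -0.22 in B5M, with a mean of -0.11 ± 0.09. Its difference was opposite in sign to that of the Hist1h1 sum in every mouse, but in B3M and B1M H1f0 was nearly level between the fractions. Its sign in these mice is not set by the counts. Together H1f0 and H1fx made up 10.3% ± 2.74 of the CPM of the 7 genes in GFP-HI and 14.3% ± 4.18 in GFP-LO cells (SD, n = 6), a smaller share in GFP-HI in each mouse. How RNA was captured for the libraries is not covered here. The size of this share can depend on capture of mRNAs with and without a poly(A) tail, which was not tested.

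H1fx, which encodes a divergent H1 protein, was detected weakly, with 35 to 59 counts in the GFP-HI and 25 to 71 counts in the GFP-LO libraries. It was at 3.49, 5.64 and 7.89 CPM in GFP-HI cells, against 3.08, 4.58 and 6.63 CPM in GFP-LO, higher in GFP-HI in 4 of 6 mice. The difference of log2 0.23 ± 0.52 ran from -0.57 in B7M to 0.94 in B5M, so its sign is not set by these counts.

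**Figure D3:**
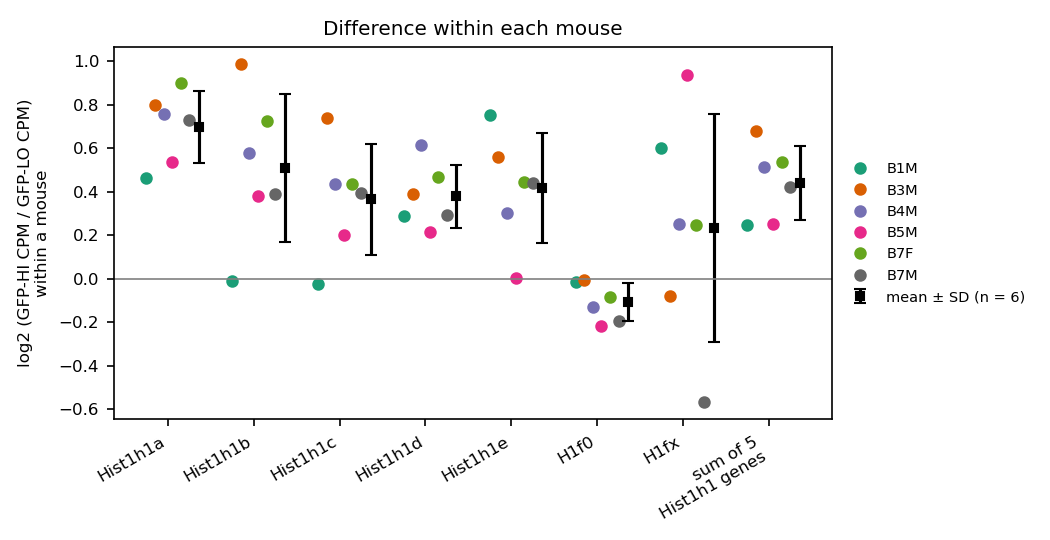
The log2 ratio of GFP-HI over GFP-LO CPM within each mouse (coloured points) for the 7 genes and the sum of the 5 Hist1h1 genes, with black squares and bars for the mean ± SD of 6 mice. All points of Hist1h1a and Hist1h1d lie above 0, all points of H1f0 lie just below 0, and those of H1fx spread from -0.57 to 0.94.

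Core histones provide the nucleosome that H1 binds. Their class sums were taken over 62 genes named Hist1 to Hist4, not only those of the cluster that holds the Hist1h1 genes. These sums differed between the fractions by more than the Hist1h1 sum did, though Hist1h1a alone (0.70) was not below them. On the log2 scale the differences were 0.65 ± 0.19 (H2A), 0.61 ± 0.12 (H2B), 0.69 ± 0.18 (H3) and 0.63 ± 0.14 (H4). The ratio of the Hist1h1 sum to the mean of the 4 core class sums was 0.518 ± 0.103 in GFP-HI and 0.593 ± 0.078 in GFP-LO cells (SD, n = 6). It was lower in GFP-HI in 5 of 6 mice, by a mean of log2 -0.21 ± 0.19, with the widest gap in B1M (0.332 in GFP-HI and 0.465 in GFP-LO) and hardly any in B3M (0.538 in GFP-HI cells against 0.532 in GFP-LO). This is a ratio of counts, not of molecules, and belongs to the contrast used to propose the family, so it was not tested. For the 15 S-phase genes the median log2 ratio was 0.36, with 14 of 15 positive and 0 called, and their summed level was higher in GFP-HI in 6 of 6 mice (log2 0.32 ± 0.08; 395 to 591 CPM in GFP-HI cells, against 286 to 469 CPM in GFP-LO). Their part in the H1 difference was not tested.

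The 5 Hist1h1 genes also differed between the mice, a measure that was not used in choosing the members. With the mean of both fractions on the log scale, the Hist1h1 sum ran from 601 CPM in B7M to 1499 CPM in B3M. This was a 2.49-fold range, against 1.47-fold for H1f0 (90.6 CPM in B7F to 133 CPM in B4M). The 4 core class sums ranged more widely, 3.08-fold (H2A), 2.81-fold (H2B), 3.17-fold (H3) and 2.70-fold (H4). Each was lowest in B7M and highest in B3M, or in B1M for H2B. The spread between mice was thus not particular to the Hist1h1 genes. By SD of the log2 level between mice, they lay from percentile 67.7 (Hist1h1a) to 81.3 (Hist1h1e) of the tested genes. In edgeR's F test of the mouse term, adjusted over all tested genes, the 5 Hist1h1 genes differed between mice, against 9.68% of all genes. Their adjusted p ranged from 9.4e-05 for Hist1h1e to 0.00165 for Hist1h1b. As the 5 genes varied together across the libraries, these are not 5 independent results. H1f0 and H1fx did not pass (adjusted p = 0.12 and 0.86). B3M had the highest level of all 5, from 132 CPM for Hist1h1a to 468 CPM for Hist1h1c, and B1M was second in all 5. Lowest were B7M for Hist1h1b, Hist1h1c and Hist1h1e and B7F for Hist1h1a and Hist1h1d. Without B3M the test passed for 3 of the 5, with Hist1h1b and Hist1h1e no longer among them, where 7.56% of all genes passed. Without both B1M and B3M it passed for Hist1h1a, Hist1h1c, Hist1h1d and H1f0, where 14.7% of all genes passed.

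The libraries of B1M and B3M also detected the fewest genes, with 12312 and 12810 in GFP-HI cells and 13101 and 14872 in GFP-LO cells, while the other 8 libraries had 15474 to 19023. Their Rn45s shares were the lowest too, at 31.5% and 34.1% in GFP-HI cells and 33.8% and 35.9% in GFP-LO cells. The other 8 libraries had 36.3% to 59.8%. The part of either in the mouse difference was not tested. B3M and B7M, with the highest and the lowest Hist1h1 sum, were both 49 days old. Without B7F, the 1 older mouse, all 5 Hist1h1 genes passed, where 8.24% of all genes passed. With 1 older mouse, age cannot be told apart from mouse, and its part was not tested. Each mouse gave 1 library per fraction, so mouse cannot be told apart from dissection or library day either. Without B1M and B3M the Hist1h1 sum differed between the fractions by log2 0.43 and H1f0 by -0.16.

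**Figure D4:**
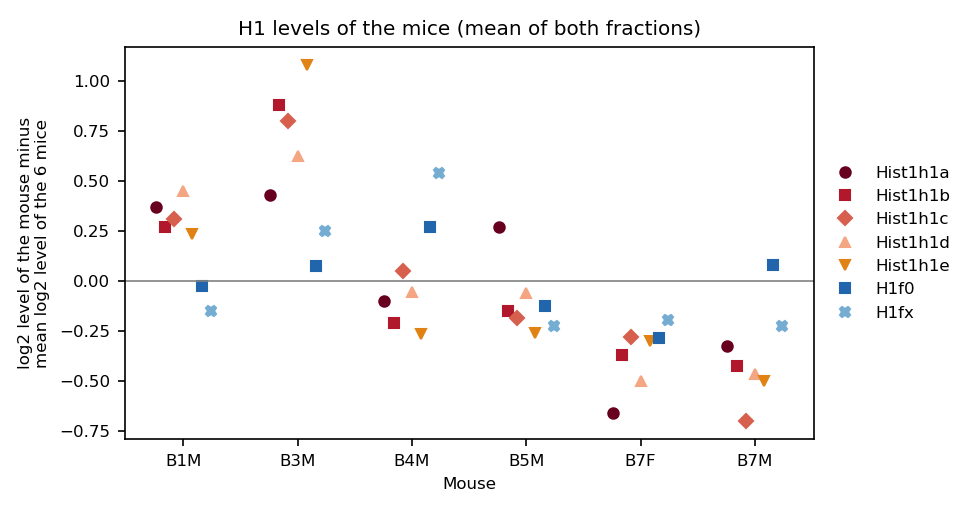
Level of each H1 gene in each mouse (mean of both fractions) relative to the mean of the 6 mice, on a log2 scale. B3M and B1M lie above 0 for all 5 Hist1h1 genes (red to orange symbols), B7F and B7M lie below 0 for them, and H1f0 (blue squares) stays within a narrower band.

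Across the 12 libraries, log2 CPM of the Hist1h1 genes were correlated with one another at Pearson r of 0.70 to 0.94 over 10 pairs, whereas H1f0 had r of 0.02 to 0.15 with them and H1fx 0.25 to 0.38. These values describe libraries that share mice, normalisation and handling, and no p is given. Among 9552 other genes with a mean of at least 5 CPM, 19 of the 20 most like the Hist1h1 sum were core histone genes of the clusters. They were led by Hist1h3h (r = 0.98), Hist2h4 (0.98), Hist1h2ag (0.97), Hist1h2be (0.97) and Hist4h4 (0.97). Hist1h2be shares 209 exonic bases with Hist1h1e in the count table, and the part of shared reads in its r was not tested. The 5 most like the Hist1h1 sum outside the clusters were Nelfb (0.94), Tomm5 (0.93), Psap (0.92), Dpm3 (0.90) and Ankrd35 (0.88). Genes most like H1f0 were Rapgef4 (0.89), Lmna, which encodes the A-type lamins of the nuclear envelope (0.86), the basal keratins Krt14 and Krt5 (0.85 each) and Kif1c (0.85). No histone cluster gene was among the 20 most like H1f0 or the 20 most like H1fx. For H1fx, with its low counts, the first 5 were Esrp2 (0.89), 3110001D03Rik (0.81), Pcbd2 (0.78), Fam32a (0.78) and Ucp2 (0.78).

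Levels were compared between genes per kilobase of the exonic length in the count table. On this scale Hist1h1b was at 274 ± 138 CPM per kb in GFP-HI and 187 ± 64.5 in GFP-LO cells (SD, n = 6). Hist1h1c followed with 209 ± 93.4 CPM per kb in GFP-HI and 159 ± 54.1 in GFP-LO, and Hist1h1a with 172 ± 44.2 in GFP-HI cells against 108 ± 33.7 in GFP-LO. Hist1h1e had 107 ± 57.9 CPM per kb in GFP-HI and 77.9 ± 35.0 in GFP-LO. Hist1h1d had 74.2 ± 24.0 in GFP-HI cells against 57.3 ± 19.3 in GFP-LO. H1f0 had 46.7 ± 6.24 CPM per kb in GFP-HI and 50.4 ± 6.80 in GFP-LO, and H1fx 5.22 ± 1.37 in GFP-HI cells against 4.49 ± 1.34 in GFP-LO.

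Neighbours in this order were compared on the mean of both fractions of each mouse by exact two-sided sign-flip permutation over 6 mice, whose smallest p is 0.03125. Hist1h1b over Hist1h1c (log2 0.31 ± 0.18), Hist1h1e over Hist1h1d (0.43 ± 0.27) and H1f0 over H1fx (3.36 ± 0.22) held in 6 of 6 mice, each at that smallest value (exact permutation adjusted p = 0.0625 over the 6 pairs). The other 3 pairs, Hist1h1c over Hist1h1a (0.39 ± 0.36), Hist1h1a over Hist1h1e (0.64 ± 0.43) and Hist1h1d over H1f0 (0.37 ± 0.44), held in 5 of 6 mice (exact permutation adjusted p = 0.1125, 0.09375 and 0.125). No neighbouring pair therefore passed after adjustment. With this smallest p, a pair can pass only where several pairs reach it together, whatever the size of its own difference. GFP-HI libraries alone put 5 of the 6 pairs past the threshold under the same limit, so no difference between the fractions is read from it. The order was also taken from the means that were compared.

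The order depended on the annotated length, which ranged from 672 bases for Hist1h1b, where the exon is the coding sequence alone, to 2977 bases for Hist1h1d. Divided by coding length instead (567 to 672 bases for the 7 genes), Hist1h1c came first with 421 CPM per coding kb, followed by Hist1h1d with 279, Hist1h1e with 247, Hist1h1b with 213, H1f0 with 188, Hist1h1a with 152 and H1fx with 8.76. Hist1h1d moved between the fifth and the second place and Hist1h1b between the first and the fourth. H1fx was last on both scales. The limit on capture of mRNAs with and without a poly(A) tail applies to this order too.

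**Figure D5:**
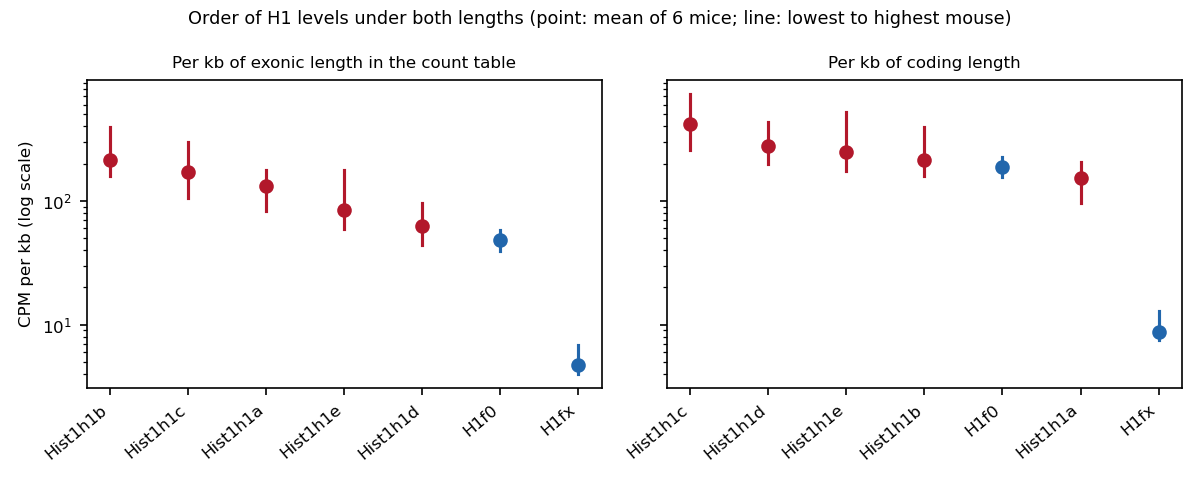
H1 levels in CPM per kb (log axis), divided by the exonic length of the count table on the left and by coding length on the right. Points are means of 6 mice over both fractions and lines run from the lowest to the highest mouse, in red for the Hist1h1 genes and blue for H1f0 and H1fx. Hist1h1b leads on the left and Hist1h1c on the right.

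Reads of close copies could be shared or lost in counting. Windows of 50 bases in each GENCODE transcript were looked for in transcripts of other genes. Of these, 32.0% in Hist1h1e, 8.54% in Hist1h1c and 2.25% in Hist1h1d were found, and 0 in Hist1h1a, Hist1h1b, H1f0 and H1fx. Hist1h1e, Hist1h1c and Hist1h1d shared windows with each other. Hist1h1e also shared them with Hist1h2be and Gm11398, and Hist1h1d with Morf4l1 and Olfr1183. The Hist1h1d transcript has 7425 bases and its counted exon 2977, so its share does not describe the counted exon. In addition, 209 of the 1931 bases of Hist1h1e lie in an exon that the table also gives to Hist1h2be, on the same strand. With regard to shared reads alone, the values of Hist1h1e are thus the least certain of the 7. By depth, and by the spread of the GFP-HI over GFP-LO difference over the mice, those of H1fx are. The Hist1h1 sum would also move with reads given to Hist1h2be, Gm11398, Morf4l1 or Olfr1183 or left out for matching several genes. How such reads were treated is not known here.

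The H1 genes of the germ line were near the detection limit. Hist1h1t, the testis H1, had at most 24 counts in a library, H1fnt at most 8, Hils1 at most 5 and H1foo, the oocyte H1, at most 2. None of these 4 was tested.

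Of genes that work with linker histones, 51 were tested and edgeR called 0 in either direction, against 0.529% of all tested genes. At an unadjusted p under 0.05 there were 7, against 848 of all 11719 genes, and DESeq2 called 0. Between mice, 7 of the 51 passed the edgeR F test, against 9.68% of all tested genes: the chaperones Npm1, Nap1l1, Nasp and Set, the competitors Hmgb1 and Hmgb2 and the enzyme Sirt1, named after their values were seen. The median log2 ratio of the 6 H1 chaperones was 0.05, against -0.02 for all tested genes. Nasp, the chaperone of H1 and H3, was at 90.3 ± 25.5 CPM in GFP-HI cells, against 75.9 ± 16.2 CPM in GFP-LO cells (SD, n = 6; log2 0.23, edgeR adjusted p = 0.66), and Nap1l1, Npm1 and Nap1l4 had 0.17, 0.11 and -0.06 (adjusted p = 0.73, 0.77 and 0.95). Proteins that compete with H1 for linker DNA had a median of 0.06 over 9 genes. The high mobility group gene Hmgb2 was at 110 ± 56.6 CPM in GFP-HI cells against 88.2 ± 44.9 CPM in GFP-LO, higher in GFP-HI in 6 of 6 mice without passing (log2 0.33, edgeR adjusted p = 0.19), and Hmgn2, Hmgn5 and Hmgb3 had 0.34, 0.21 and -0.48 (adjusted p = 0.70, 0.71 and 0.72).

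Enzymes that modify H1 had a median of -0.0005 over 11 genes. Cdk1, the mitotic kinase that phosphorylates H1, was at 52.5 ± 6.70 CPM in GFP-HI cells, against 37.2 ± 5.22 CPM in GFP-LO, higher in 6 of 6 mice (log2 0.50, edgeR adjusted p = 0.20), and it was the 1 gene of these lists called when B1M was left out. Aurkb, another mitotic kinase, had log2 0.45, Setd8, the H4 and H1 methyltransferase, -0.13, and Prkdc -0.15 (adjusted p = 0.61, 0.85 and 0.85). Readers and heterochromatin genes had a median of 0.06 over 10 genes, with Cbx1, an HP1 protein, at log2 0.37, Uhrf1 at 0.26, Suv39h1 at 0.25 and Dnmt1, the maintenance DNA methyltransferase, at 0.18 (adjusted p = 0.66, 0.79, 0.79 and 0.74). Factors for transcription and processing of replication-dependent histone mRNA had a median of 0.05 over 15 genes. E2f1 had log2 0.91, Ccne2, a cyclin E, 0.48, Zfp473 0.72 and Lsm10, of the particle that cuts histone pre-mRNA, 0.71 (adjusted p = 0.66, 0.68, 0.82 and 0.84). Levels of E2f1, Zfp473 and Lsm10 were low, with means of 7.47, 2.81 and 5.52 CPM in GFP-HI cells against 3.58, 1.79 and 2.93 CPM in GFP-LO. Slbp, whose protein binds the stem-loop shown above, was at 42.9 ± 11.3 CPM in GFP-HI cells, against 41.8 ± 9.32 CPM in GFP-LO (log2 0.03, edgeR adjusted p = 0.98), and Npat, the activator at the histone loci, at 33.6 ± 5.11 CPM in GFP-HI cells against 32.4 ± 3.76 CPM in GFP-LO (0.05, adjusted p = 0.95).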

How the data were processed

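RNA-seq counts of 12 libraries from 6 mice were analysed. The deposited table holds raw read counts per gene over the exons it lists, with their coordinates and the exonic length. Tools listed by the submitters' processing notes are featureCounts, bcl2fastq 2.20.0, R 3.4.1, FastQC and DESeq2, with mm10 and GRCm38 as builds. Not given in the sources used here are the aligner, how reads with several matches were handled, whether strand was used and which annotation release. Counting error alone puts a gene with 0 counts at up to 3 counts, or 0.257 to 0.432 CPM by library.

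Counts were fitted in R 4.3.3 with edgeR 4.0.16 (filter by group with minimum count 10 and total 15, TMM scaling, robust quasi-likelihood fit, mouse as a block, two-sided, Benjamini-Hochberg adjusted p under 0.05), which left 11719 genes. The block follows the animal code that both titles of a pair carry and the design text, where samples are described as matched. Deviations from the group means correlated at 0.24 to 0.50 within a mouse. The highest correlation of each mouse with another mouse was 0.05 to 0.25, below its own value in each case, though the ranges overlapped. The same fit gave the F test between mice. The fit was tested on simulated data. DESeq2 1.42.0, RLE scaling, no count filter, removal of Rn45s, no block and leaving out each mouse were tried as alternatives. Promoters are RefSeq's and transcripts GENCODE M21's, both on GRCm38. Each mouse gave 1 library per fraction.

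The members and lists were chosen with earlier results of these data known. Named genes are the members, up to 4 genes per list with the smallest p and the 5 most like each pattern. Slbp, Npat and the fibroblast markers were added after their values were seen. All 122 list entries were in the table, Kmt5a under its older symbol Setd8.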

Additional observations from a re-analysis of the deposited data

Results flagged for a closer look

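Within groups of 6 values, the gap between the highest or lowest and its neighbour was divided by the range of all 6. This was done in 44 sets, and 7 stood apart. The cut-off is meant to flag about 1 in 20 independent sets of normally distributed values by chance. These sets overlap and include low counts, so that rate need not hold here. B3M accounted for 4 among the H1 genes. Its GFP-HI library was far above the other 5 for Hist1h1b, at 371 CPM, and for Hist1h1c, at 605 CPM. Its GFP-LO library stood apart for Hist1h1e, at 284 CPM, and so did its mean of both fractions, which includes that library, at 345 CPM. The remaining 3 concern germ-line genes at very low counts. The GFP-HI library of B7M had 24 counts of Hist1h1t and 8 of H1fnt, and the GFP-LO library of B3M had 5 counts of Hils1.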

How the results depend on the processing

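The log2 difference of each member kept its sign under the 12 alternatives, few of which could move a mean far: leaving out 1 of 6 mice shifts it little and dropping the block leaves it as it was. H1fx moved most in proportion, to 0.09 without B5M and 0.40 without B7M, against 0.23 with all mice. The Hist1h1 sum ran from 0.40 to 0.48. Counts of calls moved. Without the replicate block edgeR called 0 genes higher and 0 lower (293 and 147 at an unadjusted p under 0.05), and 0 members. Without a count filter 127 genes were higher, 45 lower, 5 members higher and 2338 genes different between mice. DESeq2 called 109 higher, 25 lower and 5 members. Without B1M and B3M together, chosen after seeing the data, 117 genes were higher, 34 lower, 4 members higher, 1752 genes different between mice and 1 H1 partner gene (Cdk1) called. Leaving out 1 mouse at a time gave 29 to 81 genes higher, 2 to 14 lower, 1 to 4 members higher, 684 to 1528 genes different between mice, 3 to 5 members different between mice and 0 to 1 partner genes. In the order of levels, 5 neighbouring pairs passed with GFP-HI libraries alone. With 5 mice the sign-flip test cannot pass, and the order itself was the same without each mouse. The cause of these shifts was not tested. H1fx, with 25 to 71 counts in a library, is limited by depth.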
